A study of Mus musculus with 6 samples.

Results

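Collagens are the main structural proteins of the extracellular matrix, and the genes of their chains were examined in 4T1 cells, an established mouse mammary carcinoma line that is highly tumorigenic and metastatic. A collagen chain gene was taken as one whose symbol is Col, a number, the letter a and a number, read by a probe set with 1 gene symbol. This gave 42 genes of the 18193 measured, with 82 of the 45037 probe sets. Each gene was read by its probe set with the highest mean over the 6 arrays. RNA came from cells in culture that had been transduced with a vector for a control shRNA (3 arrays) or for an shRNA against NFAT1 (3 arrays), after 10 days of selection. NFAT1 is a transcription factor activated by calcium and calcineurin, and its gene is Nfatc2. All 6 samples are thus transduced and selected 4T1 cells. The vector, its promoter, the shRNA sequence and whether each group is a pool or a clone are not given in the sources used here. Whether the 3 samples of a group were grown separately is not stated. The p-values therefore rest on a spread between samples that may be only technical.

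A collagen molecule is built of several chains whose repeats of glycine and 2 further residues wind into a helix, and a chain is only secreted as part of such a trimer. The fibrillar collagens I, II, III, V, XI, XXIV and XXVII form or start the fibrils of connective tissue, whereas type IV forms the network of basement membranes under epithelia and around vessels. Types XV and XVIII are multiplexins, which carry glycosaminoglycan chains and lie at basement membranes, type VI forms beaded filaments and type VII the anchoring fibrils below stratified epithelia. In mammary tumours most fibrillar collagen is made by fibroblasts, while carcinoma cells are known to make basement membrane components themselves.

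Values are log2 RMA signals, and differences are NFAT1 shRNA minus control. Arrays had medians from 5.42 to 5.48. Their number limits the precision of every value. A signal depends on the probes as well as on the transcript. Bright, dim, low and lowest therefore describe signals and not amounts of transcript. Of 6 Nfatc2 probe sets 4 were lower and 2 higher with NFAT1 shRNA, and none passed. The differences without overlap were -0.76 (limma adjusted p = 0.0707 over all probe sets), -0.26, -0.13 and 0.35. The last was on the probe set used for the gene. Arrays are therefore named by their labels. Among genes with a group mean of at least 7, control 3 lay between the other controls for 70.7%, against 54.5% of all genes and 20 of the 42 collagen chain genes. Across all probe sets, the correlation of NFAT1 shRNA 1 was 0.991 to 0.995 with controls but 0.986 and 0.985 with the other NFAT1 shRNA arrays. Results are therefore also given without these arrays. Of 8 epithelial markers 7 had a group mean of at least 7, with Krt8, Krt18, Epcam and Cdh1 between 11.80 and 13.23 on every array, while Krt5 read 5.10 to 5.39. Krt14 read 10.67, 10.38 and 10.56 in control cells and 9.38, 7.46 and 8.40 in NFAT1 shRNA cells, a difference of -2.12 without overlap (limma adjusted p = 0.123). The mean signal of the 8 was 11.01 to 11.06 in control and 10.74 to 10.90 in NFAT1 shRNA cells. Of 7 leukocyte markers, Csf1r (group means 8.26 and 8.09) and Cd68 (6.54 and 7.30) were bright, whereas Ptprc, which defines the class, read 2.85 to 3.06. The mean signal of the 7 was 4.75 to 4.93 in control and 4.64 to 5.17 in NFAT1 shRNA cells. All 7 endothelial markers had group means under 7, Pecam1 reading 3.19 to 3.46. All 7 nevertheless had a higher mean with NFAT1 shRNA, where 59.3% of all genes did. Of these, 3 were higher without overlap, where 14.2% of all genes were. The mean signal of the 7 was 3.86 to 4.03 in control and 4.02 to 4.20 in NFAT1 shRNA cells. No marker passed, and the part of these shifts in the results was not tested.

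None of the 42 collagen chain genes passed the limma test with an adjusted p under 0.05, against 0.511% of all genes (93 of 18193; 0.181% higher and 0.33% lower). At an unadjusted p under 0.05 there were 7 (16.7%), 6 higher and 1 lower, where 17.1% of all genes met this limit (10.1% higher and 7.01% lower). The 2 groups did not overlap for 10 members (23.8%), 9 higher and 1 lower, against 22.8% of all genes (14.2% higher and 8.61% lower). Both totals were near those of all genes, while the shares by direction differed more. At that p 14.3% of members were higher and 2.38% lower, and without overlap 21.4% were higher and 2.38% lower. The lower share was 1 gene in each case. The mean was higher with NFAT1 shRNA for 28 and lower for 14, where 59.3% of all genes were higher, and the median difference was 0.065 against 0.043 over all genes. No difference reached 1, and for 30 members it was smaller than the range of the 3 controls. Without NFAT1 shRNA 1, 2 members passed, Col18a1 upward and Col19a1 downward (4.76%), while 18.4% of all genes did. Col19a1 lay below the array median on all arrays, and its other probe sets differed by 0.27, without overlap, and 0.0079. With control 3 left out, limma called 0 members but also 0 of all genes, and 4 members (9.52%) had an unadjusted p under 0.05 against 9.68% of all genes. Leaving out control 1 or control 2 instead also gave 0 of all genes. With control 3 and NFAT1 shRNA 1 both left out, limma called 0 members and 2.24% of all genes. There 5 members (11.9%) had an unadjusted p under 0.05 against 23.7% of all genes.

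**Figure D1:**
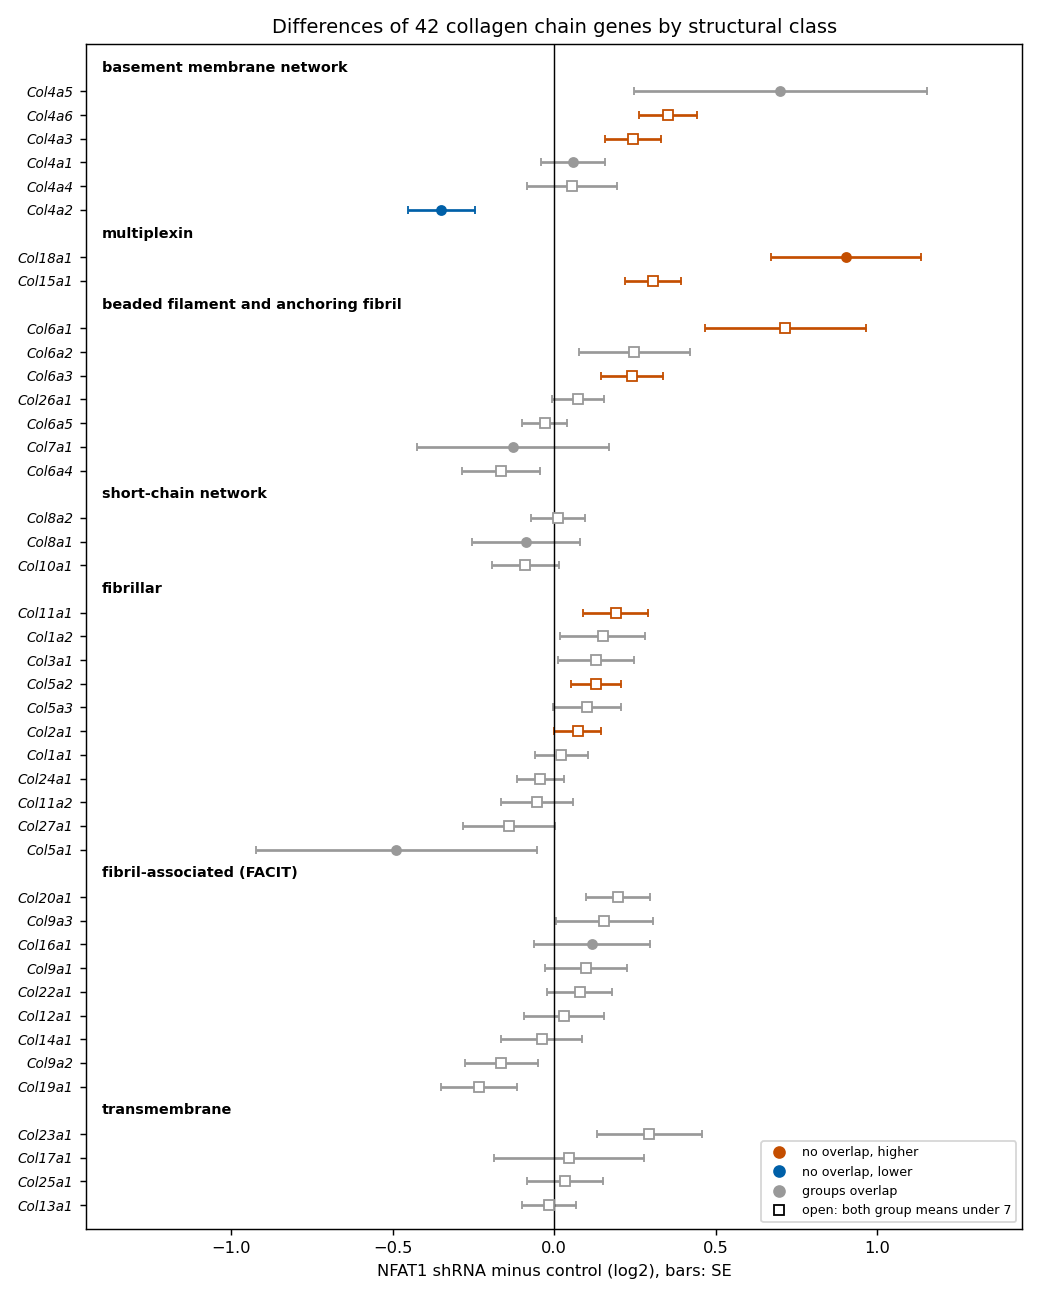
Difference in log2 signal, NFAT1 shRNA minus control, for the 42 collagen chain genes, grouped by structural class (points, with SE bars; 3 arrays in each group). Orange and blue mark genes whose groups did not overlap (9 higher, 1 lower), and open squares mark genes with both group means under 7. Col18a1 lies farthest to the right at 0.90 and Col5a1 farthest to the left at -0.49.

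The chains fell into 8 genes with a group mean of at least 7 and 34 genes below that in both groups. The 8 were Col4a1, Col4a2, Col4a5, Col5a1, Col7a1, Col8a1, Col16a1 and Col18a1. This is 19.0% of the members, against 46.5% of all genes. The 34 others read from 2.15 to 6.38, and 27 of the 42 lay below the array median on all 6 arrays. The chains of collagen I and III, which mark fibroblasts and other stromal cells, were among those 27. Col1a1 read 4.54 to 4.71, Col1a2 4.83 to 5.31 and Col3a1 2.79 to 3.18 over the 6 arrays. Other fibroblast markers were low as well, with 6 of 10 below the array median on every array, among them Dcn, Lum, Pdgfrb and Thy1, while Fn1, S100a4, Pdgfra and Postn had group means of at least 7. The mean signal of the 10 ran from 6.62 to 6.81 in control and from 6.46 to 6.76 in NFAT1 shRNA cells, and their part in the results was not tested. Within the list, Postn was lower by a difference of -2.66 without overlap (group means 9.02 and 6.36, limma adjusted p = 0.126), the most negative value of all 18193 genes. Fap differed by 0.54 without overlap. In RNA of whole cultures, fewer cells of a kind and less RNA per cell cannot be told apart.

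Among the basement membrane chains, Col4a1 and Col4a2 encode the pair that makes up the common type IV trimer. Col4a2 read 10.52, 10.79 and 10.73 on control arrays 1 to 3 and 10.21, 10.40 and 10.38 on NFAT1 shRNA arrays 1 to 3. All 3 NFAT1 shRNA arrays lay below all controls. The difference was -0.35 ± 0.10 (SE, limma adjusted p = 0.205; 95% interval -0.60 to -0.099), a level 78.5% of control. It was the only one of the 42 genes that lay lower without overlap. Col4a1 read 11.76, 11.97 and 11.86 in control cells and 11.82, 12.04 and 11.90 in NFAT1 shRNA cells. These groups overlapped, with a difference of 0.058 ± 0.098 (SE, limma adjusted p = 0.776; 95% interval -0.18 to 0.29), and its other probe set differed by 0.15. Without NFAT1 shRNA 2 the difference of Col4a1 was -0.0025.

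The 2 genes are neighbours that start head to head. In the RefSeq promoter table, of build GRCm38.p6, the window of Col4a1 is chr8:11312777-11313076 on the minus strand and that of Col4a2 is chr8:11312555-11312854 on the plus strand, so 78 bases are shared and the start sites are 21 bases apart. Their difference within each array was therefore computed, after the values were seen. Col4a2 minus Col4a1 was -1.23, -1.18 and -1.14 in control cells and -1.61, -1.64 and -1.52 in NFAT1 shRNA cells. The value itself depends on the probes, and it was lower with NFAT1 shRNA without overlap. The difference between groups was -0.41. It is given as a description, since the pair was looked at because of its values. An exact permutation test of 3 against 3 arrays cannot give a p under 0.1, so it cannot decide here. Of 11 chain pairs compared in this way, 2 had groups that did not overlap, and the other was Col6a1 and Col6a2. Of all single genes 22.8% did not overlap, and the share over all pairs of genes was not computed. Both chain pairs had an exact permutation p of 0.1 (adjusted p = 0.55 over the 11 pairs). Col6a2 minus Col6a1 was 1.90, 0.813 and 1.01 in control cells and 0.800, 0.727 and 0.798 in NFAT1 shRNA cells. The lowest control thus lay only just above the highest NFAT1 shRNA array.

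Col4a5 and Col4a6 lie head to head on chromosome X, and their chains combine in basement membranes of skin and smooth muscle. Col4a5 read 8.55, 9.88 and 9.23 in control cells and 9.07, 10.40 and 10.28 in NFAT1 shRNA cells. The groups overlapped, and the range within the controls (1.33) was larger than the difference of 0.70 ± 0.45 (SE, limma adjusted p = 0.442; 95% interval -0.39 to 1.79). Its second probe set read 6.82, 7.75 and 7.48 against 7.72, 8.52 and 8.47, a difference of 0.89 ± 0.30 (SE, limma adjusted p = 0.260 over all probe sets), and these groups overlapped as well. The difference of Col4a5 depended on single arrays. Leaving out control 1 gave 0.37 and leaving out NFAT1 shRNA 2 gave 0.46, while leaving out NFAT1 shRNA 1 gave 1.12 (limma adjusted p = 0.0735). Col4a6 read 5.15, 5.09 and 5.07 in control cells and 5.54, 5.499 and 5.33 in NFAT1 shRNA cells. Its groups did not overlap, with a difference of 0.35 ± 0.089 (SE, limma adjusted p = 0.163), which was the smallest adjusted p of the 42, and its second probe set was higher on all NFAT1 shRNA arrays too, by 0.18. The first of these probe sets read near the array medians and the second below them, a range in which RMA shrinks differences.

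The stretches upstream of the start sites of this pair are shown, since the genes share the space between them and both read higher. Each is written 5′ to 3′ on the strand of its gene, from RefSeq on build GRCm38.p6, and lies outside all gene spans of the table. Capitals mark GGAAA, the core letters bound by NFAT factors, or its reverse complement TTTCC. The stretch of Col4a5 is chrX:141475169-141475369 on the plus strand and that of Col4a6 is chrX:141474096-141474326 on the minus strand. Both stretches end before the start sites, which lie at 141475419 and 141474076. The first holds 2 matches and the second 1. The full windows, 250 bases before to 50 after the start, hold 4 and 1.
Col4a5: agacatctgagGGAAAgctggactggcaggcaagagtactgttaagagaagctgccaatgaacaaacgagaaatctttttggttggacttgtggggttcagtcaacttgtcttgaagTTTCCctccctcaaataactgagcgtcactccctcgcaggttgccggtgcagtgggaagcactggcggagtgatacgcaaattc
Col4a6: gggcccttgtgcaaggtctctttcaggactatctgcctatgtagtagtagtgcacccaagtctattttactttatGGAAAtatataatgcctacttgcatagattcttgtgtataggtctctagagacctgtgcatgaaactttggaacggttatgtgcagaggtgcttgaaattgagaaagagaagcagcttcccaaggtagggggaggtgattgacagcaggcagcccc
Promoter windows of 250 bases before to 50 after a start were in the table for 33 of the 42 genes, 36 windows in all. Of these, 21 (58.3%) held GGAAA on either strand, against 61.3% of all 32851 windows, and 5 (13.9%) held TATAAA or its reverse complement TTTATA, against 13.6%. A match is a run of letters and not a measured site.

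The other type IV chains were dim. Col4a3, a chain of the kidney and lung basement membrane, read 4.44, 4.52 and 4.40 in control cells and 4.77, 4.58 and 4.73 in NFAT1 shRNA cells, a difference of 0.24 (limma adjusted p = 0.2497) without overlap. Its second probe set differed by -0.047. Its partner Col4a4 differed by 0.056, with NFAT1 shRNA 1 as the highest of the 6 arrays, and by -0.090 without that array.

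The 2 multiplexin genes were both higher without overlap. Col18a1 encodes the chain of collagen XVIII, a basement membrane proteoglycan whose end fragment, endostatin, inhibits vessel growth. It read 8.999, 9.81 and 9.43 in control cells and 10.15, 10.64 and 10.16 in NFAT1 shRNA cells. The lowest NFAT1 shRNA array lay above the highest control. The difference was 0.90 ± 0.23 (SE, limma adjusted p = 0.169; 95% interval 0.34 to 1.46), a 1.87-fold higher mean. Its second probe set read 8.06, 8.72 and 8.44 against 9.27, 9.57 and 9.25, without overlap, and differed by 0.95 ± 0.18 (SE, limma adjusted p = 0.115 over all probe sets). Leaving out any 1 array gave 0.70 to 1.10. It did not pass without control 3 (0.91, limma adjusted p = 0.486) or without control 3 and NFAT1 shRNA 1 together (0.995, limma adjusted p = 0.136). The gene passed without NFAT1 shRNA 1 (0.99, limma adjusted p = 0.0422) and with array weights, which give less weight to arrays that fit the model less well (0.99, limma adjusted p = 0.0218). There control 3 had a weight of 10.4 and NFAT1 shRNA 1 of 0.253. These settings also called 18.4% and 18.6% of all genes. Col15a1, the other multiplexin chain, read 3.87, 4.09 and 3.94 against 4.30, 4.25 and 4.27. Its difference was 0.31 ± 0.087 (SE, limma adjusted p = 0.192), and all its signals lay below the array medians. With array weights it passed (limma adjusted p = 0.0355), as did Col4a6 (0.0242), Col4a2 (0.0434) and Col23a1, a transmembrane chain, so that 5 of the 42 (11.9%) were called.

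Of the 42 genes Col18a1 had the largest difference, and its upstream stretch, chr10:77166531-77166780 on the minus strand of GRCm38.p6, from RefSeq, is shown for this reason. It lies before the outer of 2 start sites in the table and holds no GGAAA or TTTCC.
Col18a1: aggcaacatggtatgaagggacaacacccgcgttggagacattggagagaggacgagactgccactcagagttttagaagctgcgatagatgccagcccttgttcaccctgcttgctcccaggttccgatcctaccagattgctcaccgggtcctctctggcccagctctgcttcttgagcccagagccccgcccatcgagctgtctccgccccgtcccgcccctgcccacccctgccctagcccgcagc
The window of the inner start site, chr10:77113656-77113955, held 0 matches as well. The absence of these letters says nothing about binding elsewhere, and the transcripts behind the Col18a1 probe sets were not analysed here.

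**Figure D2:**
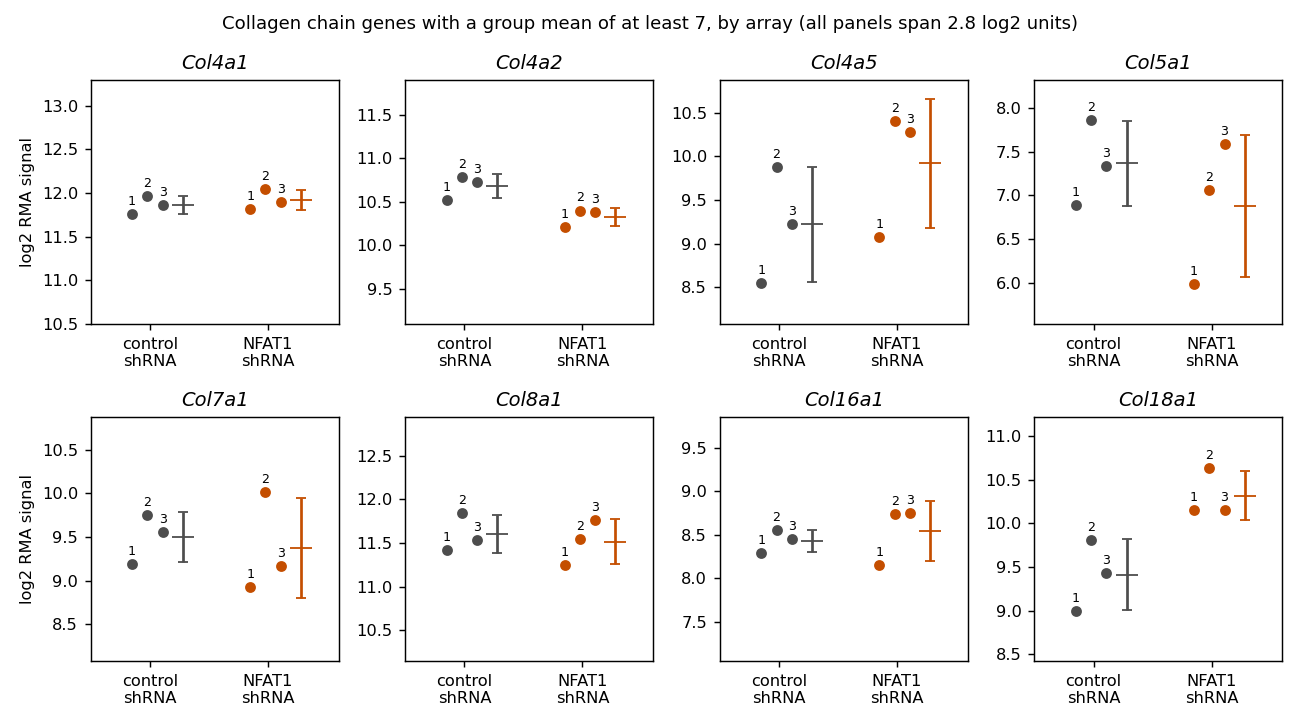
Log2 RMA signal by array (points, numbered by replicate) with mean and SD (bars, n = 3) for the 8 collagen chain genes with a group mean of at least 7, control shRNA in grey and NFAT1 shRNA in orange. The groups separate for Col18a1 (higher) and Col4a2 (lower), and in all 8 panels array 1 is the lowest of its group.

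The 8 brighter genes shared an order of arrays. Control 1 was the lowest and control 3 the middle control for all 8, and NFAT1 shRNA 1 was the lowest of its group for all 8. Among the 8458 genes with a group mean of at least 7, control 1 was lowest for 43.3%, NFAT1 shRNA 1 for 45.1% and both for 33.0%. Against the control means, the median of the 8 read -0.24, 0.25 and 0.013 in control and -0.32, 0.25 and 0.19 in NFAT1 shRNA cells. The spread within each group was therefore larger than the median difference between groups, which was -0.015. For the 34 dimmer genes the values were 0.011, -0.012 and 0.0080 in control and 0.12, 0.039 and 0.039 in NFAT1 shRNA cells. Their median difference was 0.073.

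In the type VI group, Col6a1, Col6a2 and Col6a3 encode the classical trimer of beaded filaments. Col6a1 read 3.85, 4.63 and 4.59 in control cells and 5.402, 4.995 and 4.82 in NFAT1 shRNA cells. It was higher without overlap, by 0.72 ± 0.25 (SE, limma adjusted p = 0.243), with control 1 far below the other controls and NFAT1 shRNA 1 the highest. Without control 1 the difference was 0.46. Col6a3 read 4.32, 4.12 and 4.29 against 4.46, 4.59 and 4.39, a difference of 0.24 (limma adjusted p = 0.282) that also came without overlap. Col6a2 read 5.75, 5.44 and 5.598 against 6.20, 5.72 and 5.61. Its groups overlapped, with a difference of 0.25 (limma adjusted p = 0.468), while its second probe set differed by 0.37 without overlap. Col6a2 differed by only 0.071 on leaving out NFAT1 shRNA 1. The probe sets of Col6a1 and Col6a3 lay below the array medians on every array. Col6a4 and Col6a5 differed by -0.16 and -0.030.

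Col7a1, the anchoring fibril chain, read 9.19, 9.75 and 9.55 in control cells and 8.93, 10.02 and 9.17 in NFAT1 shRNA cells. NFAT1 shRNA held both the highest and the lowest array, and the difference was -0.13 ± 0.30 (SE, limma adjusted p = 0.838; 95% interval -0.84 to 0.58). Without NFAT1 shRNA 1 it was 0.092. Col8a1, a short chain of the network below endothelia, read 11.42, 11.84 and 11.54 against 11.24, 11.54 and 11.76. These ranges overlapped, with a difference of -0.087 (limma adjusted p = 0.803), and 0.048 without NFAT1 shRNA 1. Its partner Col8a2 was dim, at 2.52 to 2.71 on the 6 arrays. Col16a1, a chain that associates with fibrils, read 8.29, 8.55 and 8.45 against 8.15, 8.74 and 8.75, a difference of 0.12 (limma adjusted p = 0.748) that ran from 0.019 without NFAT1 shRNA 3 to 0.32 without NFAT1 shRNA 1.

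Of the 11 fibrillar chains, Col5a1 alone had a group mean of at least 7. Collagen V regulates the diameter of collagen I fibrils. Col5a1 read 6.89, 7.86 and 7.34 in control cells and 5.98, 7.06 and 7.59 in NFAT1 shRNA cells, which overlapped. Its difference of -0.49 ± 0.44 (SE, limma adjusted p = 0.569; 95% interval -1.53 to 0.56) became -0.84 on leaving out NFAT1 shRNA 3 and -0.042 on leaving out NFAT1 shRNA 1. Its other probe sets differed by -0.26 and 0.051. Its partner Col5a2 read 3.25, 3.38 and 3.29 against 3.46, 3.44 and 3.40, Col11a1 3.35, 3.36 and 3.09 against 3.50, 3.46 and 3.41, and Col2a1, the cartilage collagen, 3.72, 3.72 and 3.74 against 3.86, 3.76 and 3.78. These 3 genes were higher without overlap but by only 0.13, 0.19 and 0.073, far below the array medians. Col11a2 differed by -0.054. The 9 chains that associate with fibrils differed by -0.23 to 0.20, and the 4 transmembrane chains by -0.015 to 0.29. Col24a1 had the lowest signals, 2.15 to 2.28.

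Further probe sets gave the same direction for 13 of the 27 genes that had more than 1. Over the 82 probe sets, 56 (68.3%) were higher with NFAT1 shRNA, 0 passed over all probe sets (0.2% of all did), and 16 (19.5%) had an unadjusted p under 0.05 with limma, against 15.7% of all probe sets. The largest difference of any collagen probe set was on Col12a1, named after its values were seen. Collagen XII links fibrils to the surrounding matrix. The probe set used for the gene read 6.04, 5.76 and 5.99 in control cells and 6.08, 6.03 and 5.77 in NFAT1 shRNA cells and differed by 0.031. A second probe set of the same gene read 5.45, 4.54 and 5.11 against 3.52, 3.18 and 3.52. All its NFAT1 shRNA arrays lay below all controls, a difference of -1.63 ± 0.23 (SE, limma adjusted p = 0.0693 over all probe sets), or 32.4% of control. The other 2 Col12a1 probe sets read 2.76 to 3.15 and differed by 0.065 and 0.082. Their positions on the transcript were not analysed here. Without NFAT1 shRNA 1, 5 collagen probe sets passed (12.9% of all probe sets did), among them this Col12a1 probe set and 1 each of Col18a1 and Col4a5.

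**Figure D3:**
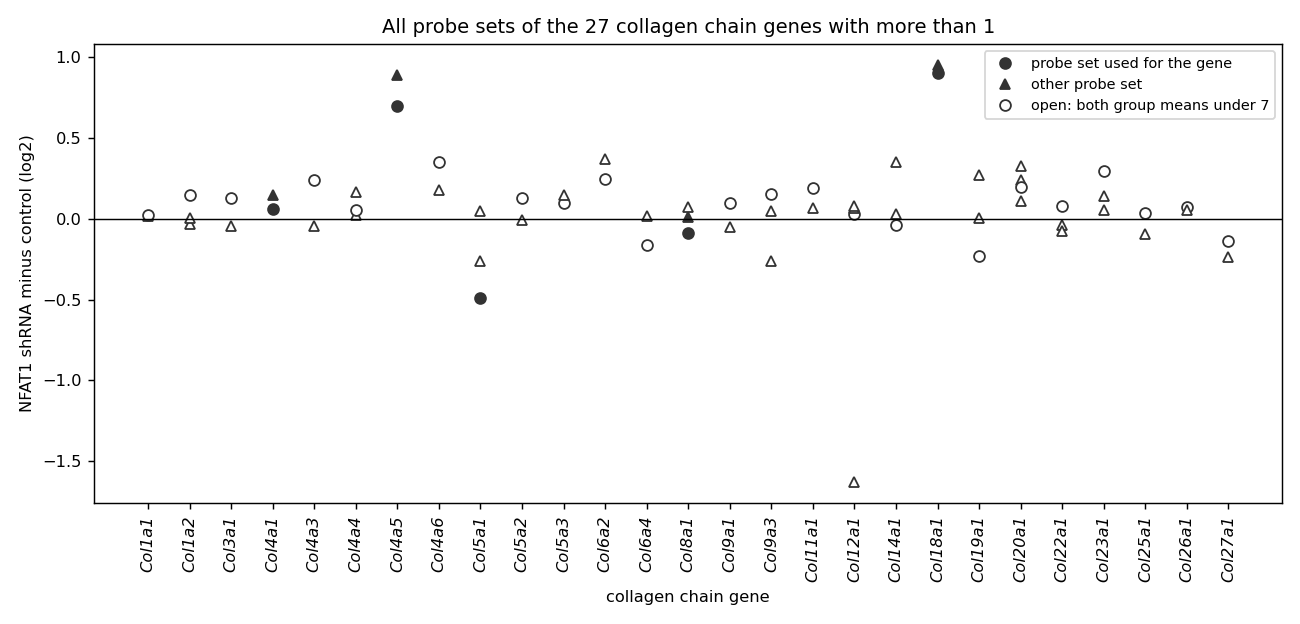
Difference in log2 signal, NFAT1 shRNA minus control, of every probe set of the 27 collagen chain genes with more than 1 (circles, the probe set used for the gene; triangles, others; open symbols, both group means under 7). Both probe sets of Col18a1 and of Col4a5 lie above 0.5, while 1 of the 4 Col12a1 probe sets lies at -1.63 apart from its other 3.

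Genes that assemble, bind and break down collagen were read from 6 lists of 78 genes, of which 70 were measured. None passed over all genes with limma, and 16 (22.9%) had an unadjusted p under 0.05, 7 higher and 9 lower, against 17.1% of all genes. Of 21 folding and modifying enzymes, 8 read higher and 13 lower, and the median difference was -0.041. Colgalt1, which adds galactose to hydroxylysine of collagen, read 10.27, 10.30 and 10.29 in control cells and 9.78, 9.20 and 9.29 in NFAT1 shRNA cells. It was lower on every NFAT1 shRNA array, by -0.86 ± 0.16 (SE, limma adjusted p = 0.0887). Plod2, which hydroxylates lysines of the telopeptides for crosslinks, read 9.77, 9.77 and 9.82 against 9.41, 9.003 and 9.17, a difference of -0.59 ± 0.12 (SE, limma adjusted p = 0.103) without overlap. The prolyl hydroxylase genes P3h2, whose product acts on type IV collagen, and P4ha2 differed by -0.75 and -0.30. Both of these overlapped between groups. P3h3 and P3h4 of the same list lay under a group mean of 7 and are named after their values were seen. They differed by 0.41 and 0.42, higher without overlap (limma adjusted p = 0.203 and 0.155). The collagen chaperone gene Serpinh1 differed by -0.13 and the prolyl hydroxylase subunit gene P4hb by -0.088. Without NFAT1 shRNA 1, Colgalt1 (-1.04, limma adjusted p = 0.00355), Plod2 (-0.70, 0.00754), P3h2 (-0.999, 0.0123) and P4ha2 (-0.41, 0.0327) passed, in a setting that called 18.4% of all genes.

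Among 12 genes for procollagen cleavage and crosslinking, 7 read higher and 5 lower, and the median difference was 0.10. Loxl3, a lysyl oxidase that starts crosslinks, read 5.42, 6.18 and 5.90 against 6.66, 7.56 and 7.28. It was higher without overlap, by 1.34 ± 0.28 (SE, limma adjusted p = 0.123), 2.53-fold. The other lysyl oxidase genes measured, named after their values were seen, did not share 1 direction. Lox differed by 0.32 and Loxl1 by -0.59, both without overlap, and Loxl4 by -0.36 with overlap. Sparc, which binds collagen in the matrix, read 9.496, 9.92 and 9.68 against 8.29, 8.81 and 9.47 and was lower without overlap, by -0.84 ± 0.29 (SE, limma adjusted p = 0.242). Pcolce, which enhances removal of the C-propeptide, differed by 0.75 and the transglutaminase gene Tgm2 by 0.53, both with overlap. Tgm2 differed by 1.29 and Pcolce by 1.14 on leaving out NFAT1 shRNA 1, and both passed (limma adjusted p = 0.0327 and 0.0191), as did Loxl3 (1.59, limma adjusted p = 0.00854). That setting called 18.4% of all genes. Without NFAT1 shRNA 3, in contrast, Tgm2 differed by 0.10 and Pcolce by 0.46. Of 10 leucine-rich proteoglycans of fibrils, none had a group mean of at least 7, and the differences ran from -0.063 to 0.21.

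Of 10 receptors and uptake genes, 4 read higher and 6 lower, and the median difference was -0.0053. Among those with a group mean of at least 7, the integrin genes Itga2 and Itgb1, whose products form a collagen receptor, differed by -0.40 (limma adjusted p = 0.343) and -0.34 (limma adjusted p = 0.254). Both overlapped between groups, and both passed without NFAT1 shRNA 1 (-0.61 and -0.43, limma adjusted p = 0.0240 and 0.0395). That setting called 18.4% of all genes. With control 3 left out too, 2 of the 70 genes of the lists passed (2.86%, against 2.24% of all genes). The discoidin domain receptor genes Ddr1 and Ddr2, collagen-activated kinases, differed by -0.17 and -0.0055, and by 0.15 each without NFAT1 shRNA 1. Itga1, another collagen-binding integrin chain, lay below that signal and is named after its values were seen. It read 4.13, 4.798 and 4.73 in control cells and 5.78, 7.11 and 6.40 in NFAT1 shRNA cells, higher without overlap by 1.87 ± 0.35 (SE, limma adjusted p = 0.0930), the largest difference in these lists. Of 9 collagen-degrading proteases, 7 had a higher mean, with a median difference of 0.067. The gelatinase gene Mmp9 differed by -0.54 (limma adjusted p = 0.391) and Mmp14, a membrane collagenase, by 0.067, both with overlap. Mmp9 ran from -0.78 without NFAT1 shRNA 3 to -0.22 without NFAT1 shRNA 1. Of the dim proteases Fap (0.54), Mmp1a (0.41) and Mmp8 (0.38), named after their values were seen, were higher without overlap and did not pass. Of 8 genes listed for proline, glycine and serine supply, 7 had a lower mean, with a median of -0.21. Of all genes 59.3% had a higher mean. The 7 include Prodh, which breaks down proline and does not supply it. Prodh read 8.66, 8.19 and 8.63 against 7.996, 6.73 and 7.42, lower without overlap by -1.11 ± 0.32 (SE, limma adjusted p = 0.193). The glycine and serine synthesis genes Shmt1, Psat1 and Psph differed by -0.49, -0.37 and -0.22, with no overlap for Psat1 alone. Without NFAT1 shRNA 1, where 18.4% of all genes passed, so did Prodh (-1.42, limma adjusted p = 0.0123), Shmt1 (-0.91, 0.00872) and Psat1 (-0.47, 0.0468). Without NFAT1 shRNA 2 they differed by -0.79, -0.26 and -0.24.

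**Figure D4:**
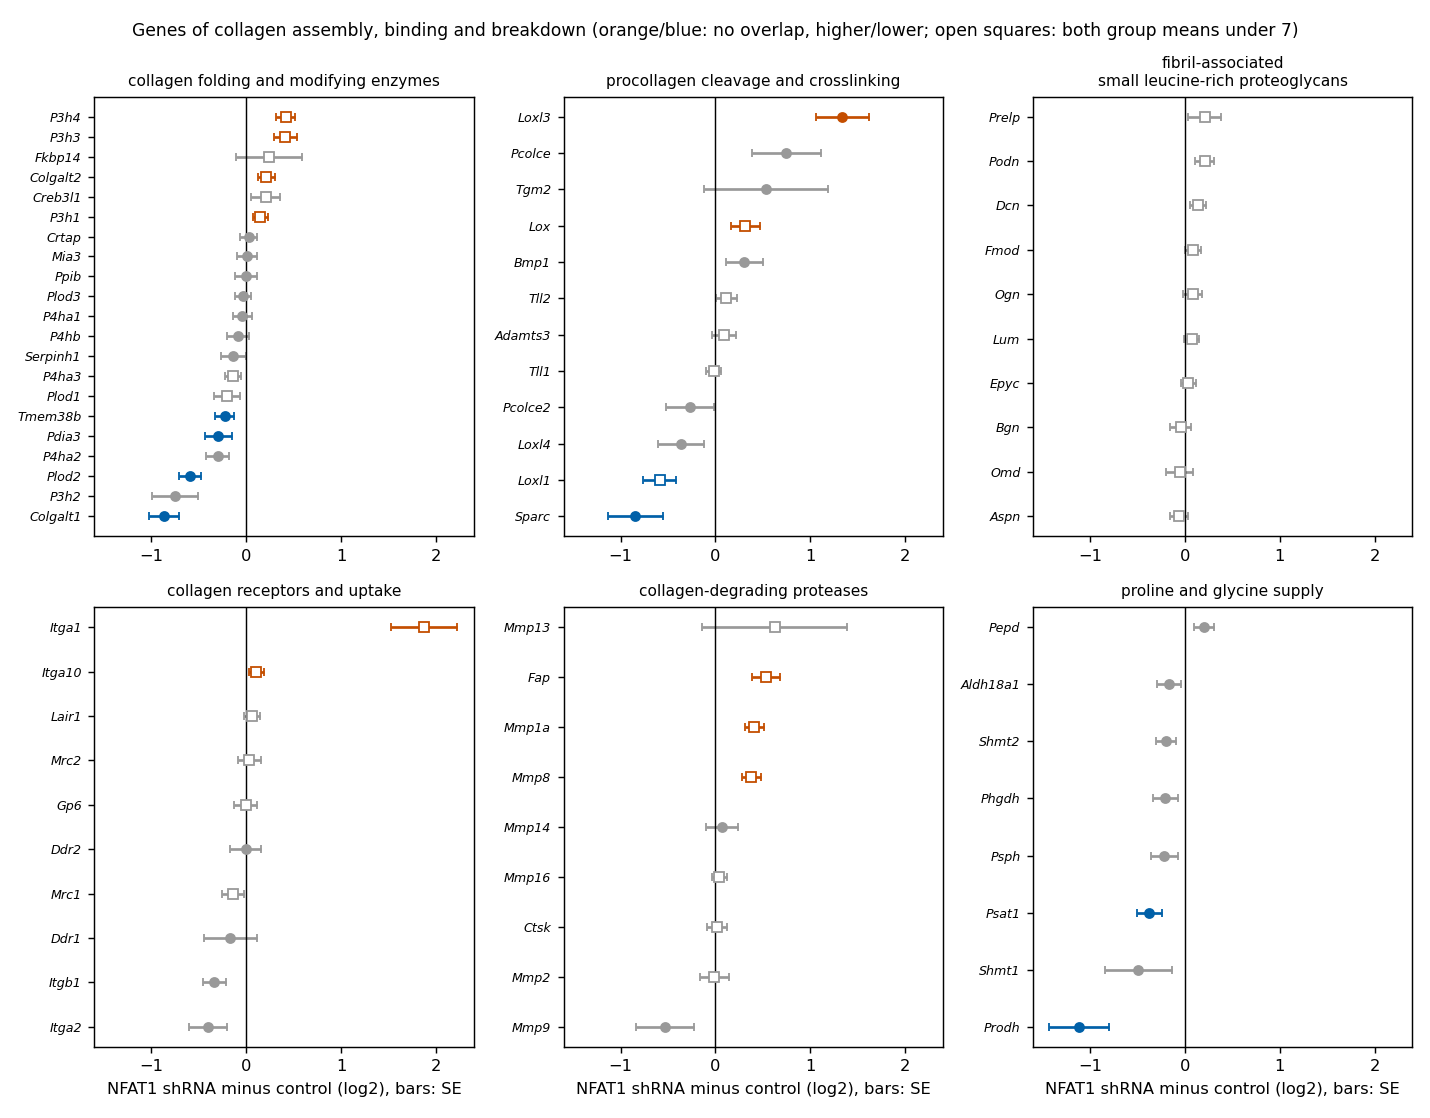
Difference in log2 signal, NFAT1 shRNA minus control (points, with SE bars), for the 70 measured genes of 6 lists of collagen assembly, binding, breakdown and precursor supply. Orange and blue mark genes whose groups did not overlap, and open squares genes with both group means under 7. Itga1 (1.87) and Loxl3 (1.34) lie farthest to the right and Prodh (-1.11), which breaks down proline, farthest to the left.

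**Figure D5:**
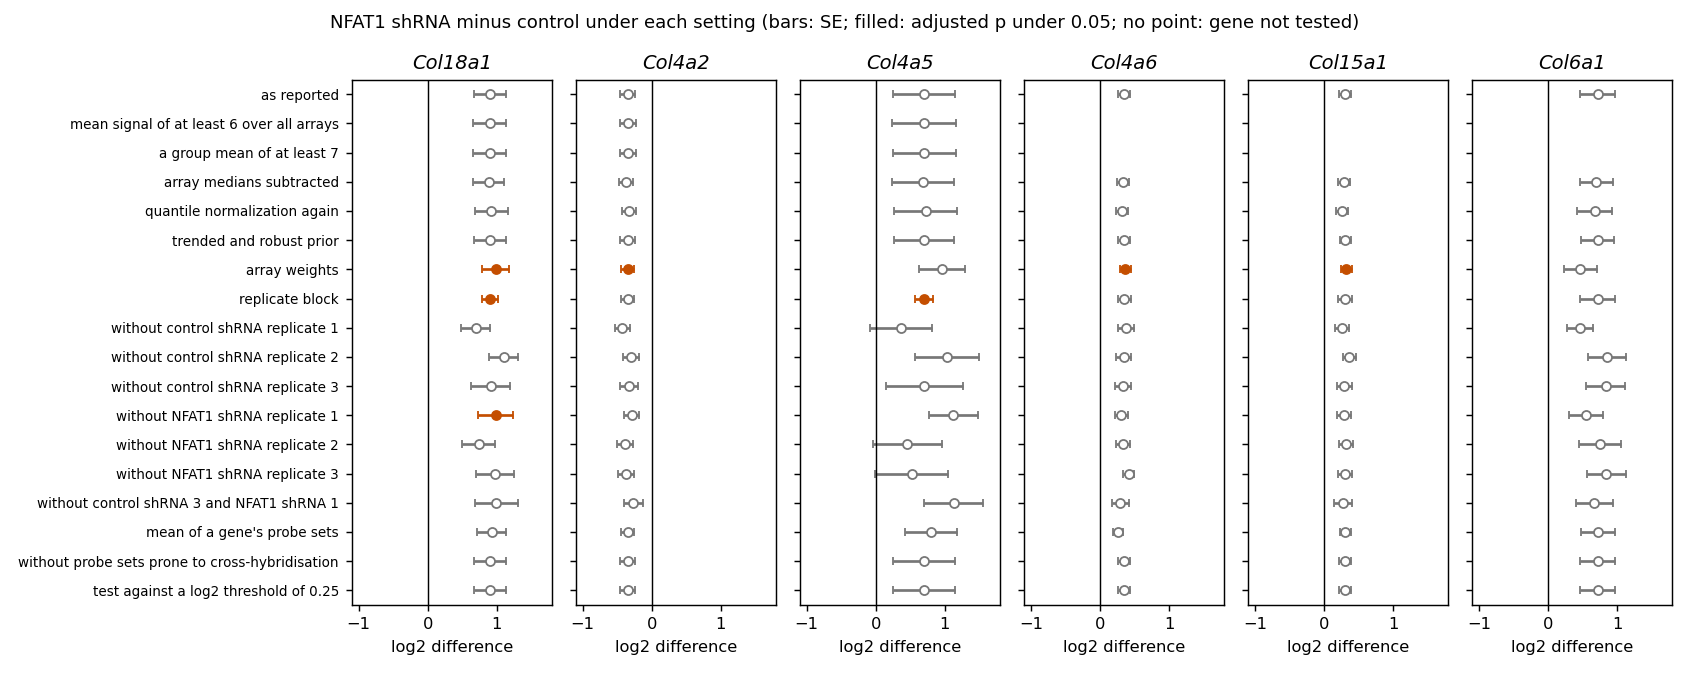
Difference in log2 signal, NFAT1 shRNA minus control, with SE, for 6 collagen chain genes under the reported fit and each alternative. Filled points have an adjusted p under 0.05, and genes left out by a filter have no point. Col18a1 is filled in 3 settings and Col6a1 in 0, and all 6 genes keep their direction in the settings shown.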

How the data were processed

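The deposited values are log2 signals of 6 Affymetrix arrays (3 control shRNA, 3 NFAT1 shRNA), produced by the authors with RMA according to the submitters' processing notes. This method corrects background, makes the arrays' distributions equal and summarises probes, so it shrinks dim differences and cannot show a shift common to most genes. The labels' protocols give 200 ng of total RNA as input. Of 45037 probe sets, 34945 had 1 gene symbol, 932 had several and 9160 are unnamed here. The GRCm38.p6 gene table matched 34741 by gene number and changed 0 symbols.

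limma 3.58.1 (R 4.3.3; lmFit, then eBayes) compared the groups over all 18193 genes (1 probe set each, the highest mean), without a filter or covariates. P-values are 2-sided and Benjamini-Hochberg adjusted over all genes, or over all probe sets where said. Intervals are at 95%. The fit was tested on simulated data.

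The text names collagen chains with a group mean of at least 7, an unadjusted p under 0.05 or groups without overlap, with their partner chains. It also names Col24a1, which has the lowest signals, and list genes that passed or were among the 4 largest differences with a group mean of at least 7. Other list genes serve as examples. The members and lists were chosen with earlier results of these data known. Same-numbered arrays deviated together for numbers 1 and 2 (correlations 0.69 and 0.53) but not 3 (-0.042). Control 2 also deviated together with NFAT1 shRNA 3 (0.46), so its value does not single out the same-numbered array. Control 3 lay between the other controls for 54.5% of genes, so its correlation cannot decide on pairing. The labels do not say whether the numbers pair the samples, so arrays were not paired. Alternatives were filters, scaling, variance priors, array weights, a block and leaving out arrays or probe sets.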

Additional observations from a re-analysis of the deposited data

How the results depend on the processing

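With limma the count of 0 changed collagen genes held under both filters, both scalings and the trended and robust prior. It also held with the probe set choices, the threshold of 0.25 and without control 3 and NFAT1 shRNA 1 together. In these settings 1 to 8 members had an unadjusted p under 0.05. The lowest share was 2.38% with the threshold of 0.25, against 5.13% of all genes. The highest was 25% (2 of 8) with the filter on a group mean of at least 7, against 21.4% of all genes tested. Without control 3 and NFAT1 shRNA 1 together it was 11.9%, against 23.7% of all genes. The count of changed members was 5 with array weights (11.9%, against 18.6% of all genes). It was 0 to 2 on leaving out 1 array (at most 4.76%, against 18.4%). With the replicate number as a block, it was 2 (Col18a1 and Col4a5), against 4.35% of all genes. Whether the numbers pair the samples is not stated. The block also called 4 of the 82 collagen probe sets, against 3.18% of all probe sets. Leaving out 1 array gave 0 to 5 probe sets, the 5 without NFAT1 shRNA 1, where 12.9% of all probe sets passed. The 70 genes of the lists gave 18 with array weights (25.7%, against 18.6% of all genes), 8 with the block (11.4%, against 4.35%), 0 to 16 on leaving out 1 array (at most 22.9%, against 18.4%) and 2 without control 3 and NFAT1 shRNA 1 (2.86%, against 2.24%).

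The median difference of the members, 0.065, was -0.027 over the 10 with a mean of at least 6, -0.015 over the 8 with a group mean of at least 7, 0.046 with array medians subtracted, 0.035 with quantile normalization again, 0.030 with array weights, 0.041 with all probe sets of a gene averaged, 0.017 without probe sets prone to cross-hybridisation and 0.040 to 0.093 on leaving out 1 array.

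Small differences changed sign, all without passing. With array weights Col7a1 read 0.037, Col8a1 0.023, Ddr1 0.081 and Ddr2 0.093. Without control 3 and NFAT1 shRNA 1 Col4a4 read -0.10, Col7a1 0.12, Col8a1 0.018, Ddr1 0.11 and Ddr2 0.15. Col8a2 read -0.0076 with array medians subtracted, Ddr2 0.031 with quantile normalization again and Mmp14 -0.037 with the mean of its probe sets. On leaving out 1 array the ranges were -0.14 to 0.040 for Col11a2, -0.0025 to 0.11 for Col4a1, -0.090 to 0.17 for Col4a4, -0.45 to 0.092 for Col7a1, -0.21 to 0.048 for Col8a1, -0.038 to 0.055 for Col8a2, -0.36 to 0.15 for Ddr1, -0.093 to 0.15 for Ddr2 and -0.023 to 0.25 for Mmp14. The cause of these changes was not tested. Dim signals limit the 34 genes with both group means under 7.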
